A study of Crocodylus porosus with 60 samples.

Results

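The table for the saltwater crocodile, Crocodylus porosus, lists 653 distinct mature miRNA names, of which 509 are N-numbered, as in miR-N341, and carry no family name. Described here are the 33 N-numbered rows that were read in every testis library above a minimum level and were at or near 0 in the other tissues. They were chosen by their name, being N-numbered, and selected on the deposited RPM (read numbers brought to the same total in every library). Each row had at least 10 RPM in each of 4 testis columns, and its mean over these columns was at least 10 times its highest value in any other tissue's column. A further 2 rows had been set aside beforehand, and neither meets both thresholds. The testis levels and the gap to the other tissues are therefore what the rows were chosen for, and they are described here without a test. The split of the testis libraries into runts and normal hatchlings was not used as such, and that comparison is tested. The minimum in each testis library did remove rows that were low in either size class, so the members are not all testis-restricted rows.

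Small RNA was sequenced from tissues of farmed hatchlings, with no treatment. Runts were 359 days old and 386.2 ± 23.6 mm long, and normal hatchlings were 373 days old and 740.2 ± 73.5 mm long, with lengths as mean ± SD over the animals of the study, per the labels. The table has 15 usable columns for 10 tissues, namely testis (2 runt and 2 normal), brain and heart (1 runt and 1 normal each), and 1 column each of jaw skin, spleen, cloaca, small intestine, tongue, liver and stomach, whose size class is not given. The size class stands only in the column headers, and nothing says that libraries of the same class came from separate animals, so the p-values below speak of the variation among 4 libraries, which may be technical.

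MicroRNAs are short RNAs that are processed from hairpin precursors and guide Argonaute proteins to matching sites in messenger RNAs, which are then repressed or degraded. Some are made in nearly every cell and others in few cell types. In vertebrates miR-202 is known from the supporting cells of the gonad, and miR-34b and miR-449 from germ cells and ciliated cells. Testis is also a tissue in which small RNA sequencing picks up many other short RNAs, above all those bound by PIWI proteins. The files used here hold neither sequences nor positions of the 33 rows, so their precursors, seeds and targets were not analysed here, and whether each is a true miRNA was not tested.

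The tissue label held against the gonad marker. miR-202-5p had 127 and 110 RPM in the runt testis libraries and 435 and 339 RPM in the normal ones, against at most 0.37 RPM in any other column, that of spleen. Depth was estimated from the largest step of which most low values are whole multiples. It was 1110000 to 1950000 reads in the testis libraries and 537000 to 4760000 in the other columns. A single row, miR-N444, took 29.0% and 26.5% of the RPM total in the runt testis libraries and 34.4% and 60.0% in the normal ones. Every other row is a share of what remains. All listed rows together held 68.1% to 81.5% of the RPM total in the testis libraries. As deposited, the second normal library was the lowest of the testis libraries in 17 of the 33 members. It was also the lowest in 107 of the 141 other rows with at least 10 RPM in each testis library. The part of miR-N444 in this was not tested. For comparisons between the testis libraries the values were therefore also scaled to a common level by a trimmed mean of log ratios, with factors of 1.14 and 1.33 for the runt libraries and 1.13 and 0.586 for the normal ones.

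Together the 33 rows made up a small part of the listed reads in testis and almost nothing elsewhere. Their summed level was 5688 and 6627 RPM in the runt testis libraries, and 7275 and 3153 RPM in the normal ones. In the 11 columns of the other 9 tissues the sum ran from 0 RPM in cloaca to 14.2 RPM in the brain of the runt, with a median of 3.03 RPM. The members took 0.836% and 0.922% of the listed reads in the runt testis libraries, and 1.04% and 0.387% in the normal ones. Of the N-numbered reads other than miR-N444 they took 22.3% and 21.5% in the runt libraries and 31.9% and 27.1% in the normal ones.

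**Figure D1:**
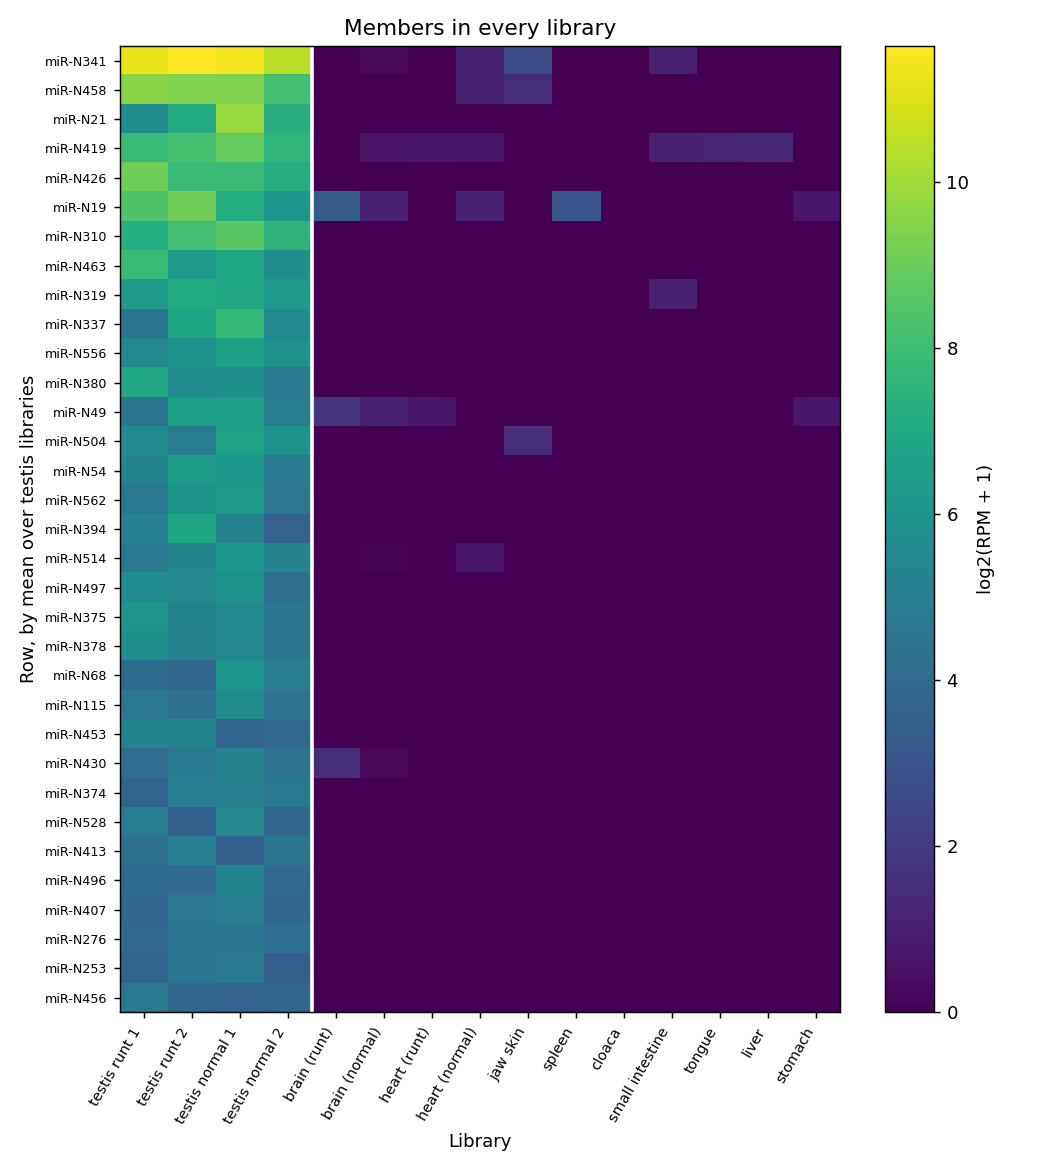
Heat map of the 33 rows, ordered by their mean over the testis libraries, in each of the 15 columns. Colour is log2(RPM + 1), and the white line parts the 4 testis libraries on the left from the 11 other columns, where 92.6% of the values are 0.

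Of the 363 values that the 33 rows have in the other columns, 27 were above 0. In the other tissues 24 rows were not detected at this depth, and were listed at 0 in all 11 columns. The most abundant of these 24 in testis were miR-N21, miR-N426, miR-N310, miR-N463 and miR-N337. The remaining 9 rows had a value above 0 in 1 to 6 of the 11 columns. Most of these values were worth 3 reads or fewer, and 6 were worth more than 3 reads. They belonged to miR-N19 in spleen and in both brain libraries, to miR-N49 in both brain libraries, and to miR-N430 in the brain of the runt.

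miR-N19 was the row with the clearest signal outside testis. It had 9.96 RPM in the brain of the runt (95% Poisson interval 6.19 to 15.3 RPM, from 21 estimated reads) and 1.05 RPM in the brain of the normal hatchling. In spleen it had 7.44 RPM (4.54 to 11.5 RPM, from 20 reads). Its testis mean was 27.9 times the highest of these values. miR-N49 had 2.37 RPM in the brain of the runt and 1.05 RPM in that of the normal hatchling, with 5 reads in each, and its testis mean was 25.7 times the higher one. The intervals, exact and two-sided, cover counting error only.

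Ratios of the testis mean to the highest other column could be formed for 9 rows. The largest was that of miR-N341, at 443, where the highest other column was jaw skin with 5.56 RPM, worth 3 reads (interval 1.15 to 16.3 RPM). Next came miR-N458 with 322, miR-N419 with 200 and miR-N319 with 106. miR-N514 reached 75.8 and miR-N504 reached 32.7. The smallest was that of miR-N430, at 13.3. In these rows the highest other value was worth at most 4 reads, so their order is not fixed by the depth.

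The depth of the other columns sets how far a value of 0 can be read. A column at 0 allows up to 3 reads, which is 5.59 RPM in jaw skin, 4.51 RPM in liver, 3.81 RPM in tongue and 0.63 RPM in the brain of the normal hatchling. With every value below that limit raised to it, all 33 testis means stayed at least 10 times higher than in spleen and in either brain library. In the heart of the runt the number was also 33, and in stomach it was 31. It was 23 for cloaca, 22 for small intestine, 21 for tongue, 21 for the heart of the normal hatchling, 17 for liver and 15 for jaw skin. For 15 rows, those of highest testis mean, the testis mean thus stayed at least 10 times the value or this limit in all 11 columns. The limit does not cover counting error in values above 0. miR-N504, 1 of the 15, had 1 read in jaw skin, with a Poisson interval up to 10.4 RPM. Against its testis mean of 60.4 RPM, a difference of 10 times is not secured for it. For the other 18, with testis means of 16.3 to 49.5 RPM, a difference of 10 times was not detectable at this depth in every tissue.

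The gap between the 33 rows and the rest of the testis repertoire was wide. In all, 174 rows had at least 10 RPM in each testis library, 72 of them N-numbered and 102 with a family name. Of the 72 N-numbered rows, 33 met the ratio of 10, and of the 102 rows with a family name only miR-202-5p did. No N-numbered row with that testis level had a ratio between 3.94 (miR-N536, with 65.7 RPM in testis and 16.7 RPM in jaw skin) and 13.3 (miR-N430). The next rows outside were miR-N444 with a ratio of 1.63 and miR-N558 with 1.32, while just inside stood miR-N430, miR-N49 and miR-N19. A ratio of 5 in place of 10 therefore gave the same 33 rows, and a ratio of 20 gave 32. This gap rests on the listed zeros. Were they raised to the 3-read limit, 5.59 RPM in jaw skin, low members such as miR-N456 (testis mean 16.3 RPM) would no longer stand apart.

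**Figure D2:**
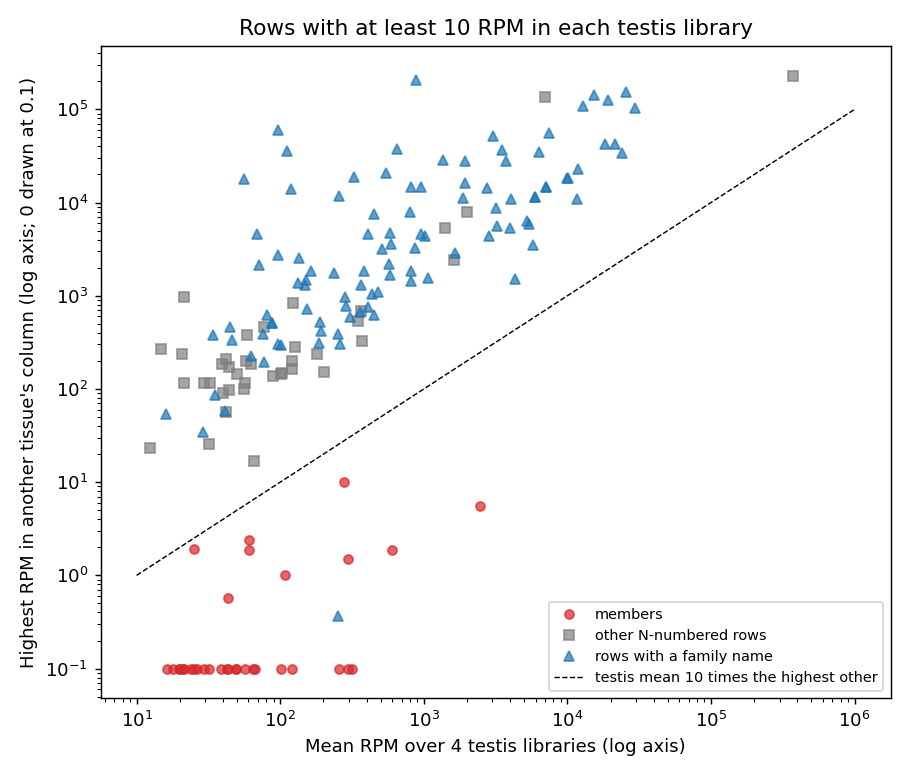
Mean RPM over the 4 testis libraries (x, log axis) against the highest RPM in another tissue's column (y, log axis, with 0 drawn at 0.1) for the 174 rows with at least 10 RPM in each testis library. The 33 members (red circles) lie under the dashed line together with 1 row with a family name (blue triangle), miR-202-5p, and apart from the other 39 N-numbered rows (grey squares).

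The minimum level, in contrast, cut through a continuum. Just inside it were miR-N253, whose lowest testis library had 10.2 RPM, miR-N528 with 11.4 RPM and miR-N413 with 11.4 RPM. Just outside were miR-N414 with 9.86 RPM and miR-N543 and miR-N557 with 9.61 RPM each, all listed at 0 in the 11 other columns. A further 49 N-numbered rows met the ratio but had under 10 RPM in some testis library. With a minimum of 5 RPM there were 48 members, and with 20 RPM there were 19.

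miR-N341 was by far the most abundant member, and also the steadiest once the libraries were scaled. It had 2514 and 3185 RPM in the runt libraries, against 2779 and 1371 RPM in the normal libraries. It ranked 34th of the 615 rows read in testis, with 2 N-numbered rows above it, and made up 44.2% and 48.1% of the members' reads in the runt libraries and 38.2% and 43.5% in the normal ones. RPM is not divided by length, but mature miRNAs are of similar length. On the scaled RPM, its values were 2213 and 2391 in the runt libraries and 2462 and 2342 in the normal ones, a coefficient of variation of 4.47%. The median coefficient of variation of the 33 members was 46.7% on that scale.

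miR-N458 followed with a testis mean of 597 ± 209 RPM, against 2462 ± 778 RPM for miR-N341 (SD, n = 4 each), and ranked 54th. It had 752 and 668 RPM in the runt libraries, against 678 and 288 RPM in the normal ones. The low value is that of the second normal library, as for most rows. On the scaled RPM the spread narrowed to 662 and 501 in the runt libraries and 601 and 492 in the normal ones, and the groups overlapped.

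A middle group of 8 rows had testis means from 102 to 316 RPM, with coefficients of variation from 30.9% (miR-N319) to 128% (miR-N21), against 31.6% for miR-N341 and 35.0% for miR-N458. miR-N21 had 51.5 and 138 RPM in the runt libraries, against 916 and 157 RPM in the normal ones. The first normal library was 17.8 times the first runt library, the widest range of any of the 33 rows, and both normal libraries were above both runt libraries. As deposited, the Poisson intervals of its second runt (117 to 161 RPM) and second normal library (140 to 176 RPM) overlapped. miR-N337 had 22.4 and 117 RPM in the runt libraries, against 221 and 45.4 RPM in the normal ones. The groups overlapped, and the highest library was 9.88 times the lowest. miR-N310 had 146 and 286 RPM in the runt libraries, against 408 and 186 RPM in the normal ones.

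miR-N419 had 229 and 294 RPM in the runt libraries, against 470 and 199 RPM in the normal ones. For miR-N310 and miR-N419 alike the deposited values overlapped between the size classes. On the scaled RPM they did not. miR-N310 then had 129 and 215 in the runt libraries and 361 and 318 in the normal ones, and miR-N419 had 202 and 221 in the runt libraries and 416 and 340 in the normal ones.

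miR-N19 ran the other way. It had 347 and 549 RPM in the runt libraries, against 145 and 69.3 RPM in the normal ones, and the groups overlapped neither as deposited nor when scaled. miR-N426 had 540 and 242 RPM in the runt libraries, against 247 and 150 RPM in the normal ones. The first runt library alone stood high in miR-N426. miR-N463 had 226 and 77.8 RPM in the runt libraries, against 126 and 53.0 RPM in the normal ones, again with the first runt library on top. miR-N319 was among the steadier rows, with 83.4 and 142 RPM in the runt libraries, against 130 and 74.9 RPM in the normal ones.

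**Figure D3:**
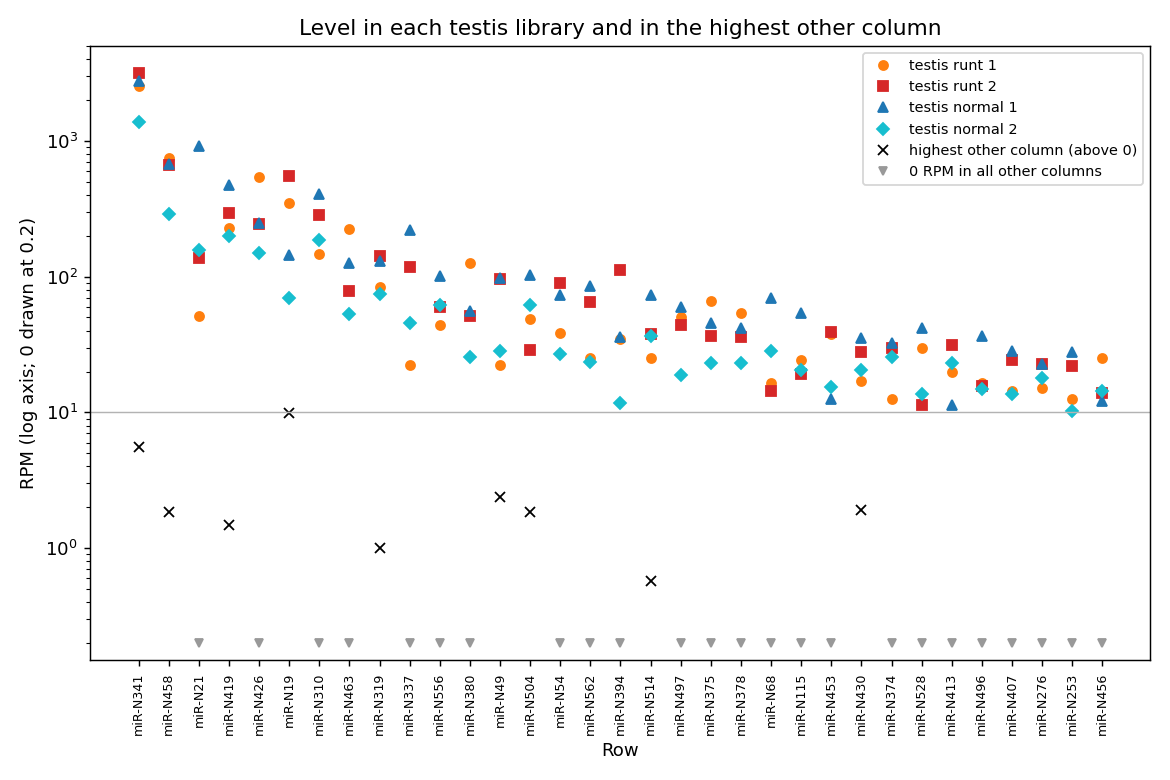
RPM (log axis) of each of the 33 rows in the runt libraries (circles and squares) and the normal libraries (triangles and diamonds) of testis, with the highest value in any other column (crosses) or, for the 24 rows at 0 in all of them, a grey mark drawn at 0.2. The grey line is the minimum of 10 RPM, and every testis point lies above it, from 10.2 RPM for miR-N253 to 3185 RPM for miR-N341.

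A group of 5 rows had testis means of 57.0 to 66.8 RPM. miR-N556 had 43.9 and 59.4 RPM in the runt libraries, against 102 and 62.2 RPM in the normal ones, and both normal libraries were higher. As deposited, the Poisson intervals of its second runt (46.4 to 75.7 RPM) and second normal library (51.4 to 74.0 RPM) overlapped. miR-N504 had 48.4 and 28.8 RPM in the runt libraries, against 103 and 61.7 RPM in the normal ones, also without overlap of the values. The Poisson intervals of its first runt (36.5 to 63.4 RPM) and second normal library (50.9 to 73.5 RPM) did overlap. miR-N380 had 126 and 51.6 RPM in the runt libraries, against 55.7 and 25.7 RPM in the normal ones. Like miR-N426 and miR-N463, miR-N380 was highest in the first runt library. The groups overlapped for miR-N49, with 22.4 and 96.1 RPM in the runt libraries, against 96.9 and 28.5 RPM in the normal ones. They overlapped for miR-N54 too, with 38.5 and 89.1 RPM in the runt libraries, against 73.4 and 27.0 RPM in the normal ones.

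The remaining 18 rows had testis means under 50 RPM. Their single values ran from 10.2 RPM, worth 20 reads, to 113 RPM, that of miR-N394 in the second runt library. The fewest estimated reads were 13, for miR-N528 in the second runt library (11.4 RPM). miR-N394 had 35.0 and 113 RPM in the runt libraries, against 36.1 and 11.7 RPM in the normal ones. miR-N68 had 16.6 and 14.4 RPM in the runt libraries, against 69.2 and 28.5 RPM in the normal ones. The normal libraries of miR-N68 were thus both higher, in deposited as in scaled RPM. As deposited, the Poisson intervals of its first runt (9.60 to 25.6 RPM) and second normal library (21.7 to 37.2 RPM) overlapped. miR-N453 was the second row after miR-N19 in which both runt libraries stood above both normal ones, with 37.6 and 39.3 RPM, against 12.6 and 15.3 RPM. On the scaled RPM the gap was small, with 33.1 and 29.5 in the runt libraries and 11.2 and 26.1 in the normal ones. Its log2 fold was 0.83 (limma adjusted p = 0.336).

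Among these rows miR-N375 and miR-N378 had close values in 3 of the 4 testis libraries, the exception being the first runt library, a likeness noticed after their values were seen. miR-N375 had 66.3 and 36.7 RPM in the runt libraries, against 45.4 and 22.9 RPM in the normal ones. For miR-N378 the values were 53.8 and 35.8 RPM in the runt libraries and 42.1 and 22.9 RPM in the normal ones. Whether they share reads was not tested.

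The steadiest of the low rows as deposited was miR-N276, with 15.2 and 22.7 RPM in the runt libraries, against 22.9 and 17.8 RPM in the normal ones. The lowest member by testis mean, miR-N456, had 25.1 and 14.0 RPM in the runt libraries, against 12.0 and 14.3 RPM in the normal ones. At such levels 14.0 RPM is worth 16 reads. The other rows of this group were miR-N562, miR-N514, miR-N497, miR-N115, miR-N430, miR-N374, miR-N528, miR-N413, miR-N496, miR-N407 and miR-N253, with testis means from 18.1 RPM (miR-N253) to 49.5 RPM (miR-N562).

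The 33 rows did not share a single profile over the testis libraries. In deposited RPM, 7 rows were highest in the first runt library, 7 in the second runt library, 19 in the first normal library and 0 in the second normal library. After scaling, the numbers were 7 and 3 for the runt libraries and 15 and 8 for the normal ones. The 7 rows highest in the first runt library after scaling were miR-N458, miR-N426, miR-N463, miR-N380, miR-N375, miR-N378 and miR-N453. Those highest in the second runt library were miR-N19, miR-N54 and miR-N394. Of the 141 other rows with at least 10 RPM in each testis library, 34 and 44 were highest in the runt libraries and 17 and 46 in the normal ones after scaling.

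**Figure D4:**
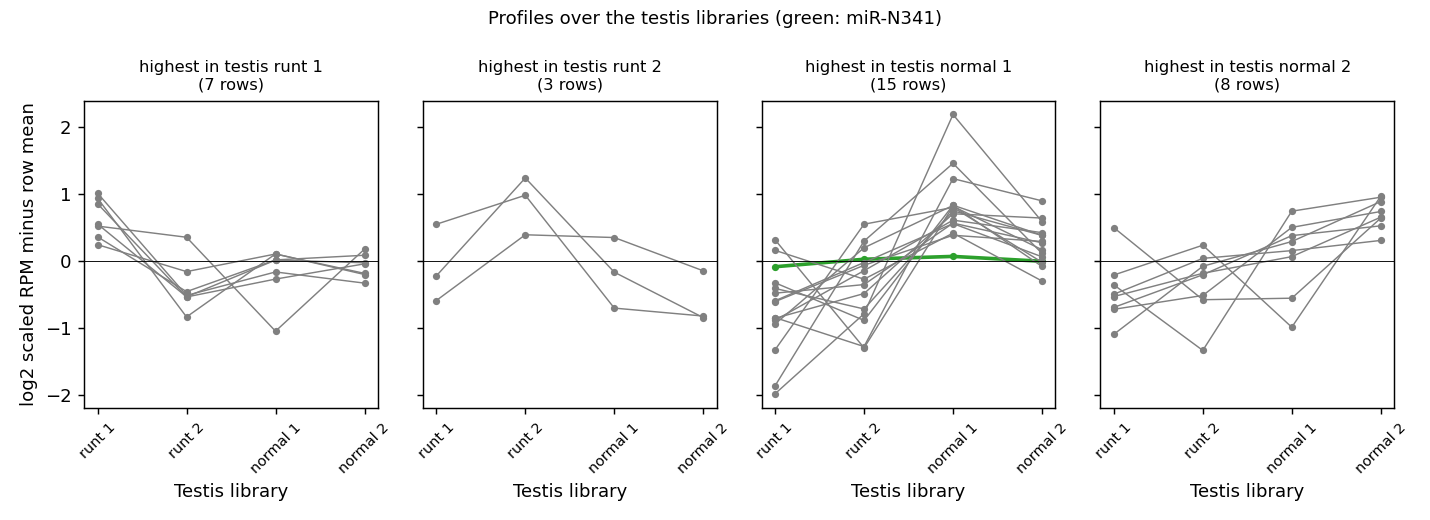
Scaled level of each of the 33 rows in the 4 testis libraries, as log2 scaled RPM minus the row's own mean (y), in 4 panels by the library in which the row was highest. Lines join the values of 1 row and carry no order in time, and miR-N341 (green) is nearly flat beside rows that span up to 17.9 times.

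The spread of the members over the testis libraries was in the range of other rows. Their median coefficient of variation was 48.4% as deposited, against 69.3% for the other 39 N-numbered rows and 43.4% for the 102 rows with a family name. On the scaled RPM it was 46.7% for the members, 55.5% for the other N-numbered rows and 35.1% for the rows with a family name.

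Runts against normal hatchlings asked whether small size went with other miRNA levels in the testis. None of the 33 members differed past the threshold. They were tested with limma on log2(scaled RPM + 1) over the 4 testis libraries, together with all 234 rows that had at least 10 RPM in at least 2 of them. Of the members 0 of 33 passed an adjusted p of 0.05 (two-sided, Benjamini-Hochberg over the 234 rows), and of all rows tested 12, or 5.13% (2.99% higher and 2.14% lower in runts). The smallest adjusted p of a member was 0.0542, for miR-N68 and miR-N19. At an unadjusted p of 0.05 there were 8 members, 1 higher and 7 lower in runts, against 35.5% of all rows tested (20.5% higher and 15% lower).

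The 8 rows were singled out after their values were seen. Means are given in deposited RPM, while the log2 folds are on the scaled RPM, so the 2 need not match. miR-N19 had the highest fold, at 448 RPM in runts and 107 RPM in normal hatchlings on average (log2 fold 1.52, SE 0.33, limma adjusted p = 0.0542). At the other end stood miR-N21, with means of 94.8 RPM in runts and 536 RPM in normal hatchlings (log2 fold -2.75, SE 0.67, limma adjusted p = 0.0620). miR-N68 had means of 15.5 RPM in runts and 48.9 RPM in normal hatchlings (log2 fold -2.04, SE 0.45, limma adjusted p = 0.0542). miR-N504 had a log2 fold of -1.66, miR-N514 of -1.31, miR-N556 of -1.22, miR-N310 of -1.02 and miR-N419 of -0.83, with limma adjusted p-values from 0.0804 to 0.125.

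The intervals were narrowest for the most abundant members, but they hold for the scaled values only. The log2 fold of miR-N341 was -0.06 (95% interval -0.65 to 0.53) and that of miR-N458 was 0.08 (-0.67 to 0.83). These were the 2 of the 33 rows whose interval lay within a doubling in either direction. Without scaling the estimates were 0.54 for miR-N341, outside that interval, and 0.68 for miR-N458, and the sign of each turned under some settings. For a member of median precision the interval spanned 2.38 on the log2 scale, so a change of 2 times in either direction could not be told from none in most rows.

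The members' median log2 fold lay below that of all rows tested with and without scaling, but how far it lay below 0 depended on the scaling. The order of the summed levels turned with the scaling, so no direction is given for the sum. On the scaled RPM, 24 of the 33 log2 folds were below 0, or 72.7%, against 48.7% of all rows tested, and their median was -0.64, against 0.02 over all rows. Both runt libraries were below both normal ones in 15 members and above them in 2 members on the scaled RPM, against 31.2% and 34.6% of all rows tested. Among the 141 other rows that also had 10 RPM in each testis library, the numbers were 47 and 53. In deposited RPM the numbers were 4 and 2 members, against 9.83% and 40.2% of all rows, so the scaling decides how many members stand apart. Without scaling the median log2 fold of all rows moved to 0.59 and that of the members to -0.07, with 18 members below 0. The summed level was 6158 ± 664 RPM in runts and 5214 ± 2915 RPM in normal hatchlings as deposited, and 4991 ± 22.9 and 5916 ± 751 when scaled (SD, n = 2 each).

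**Figure D5:**
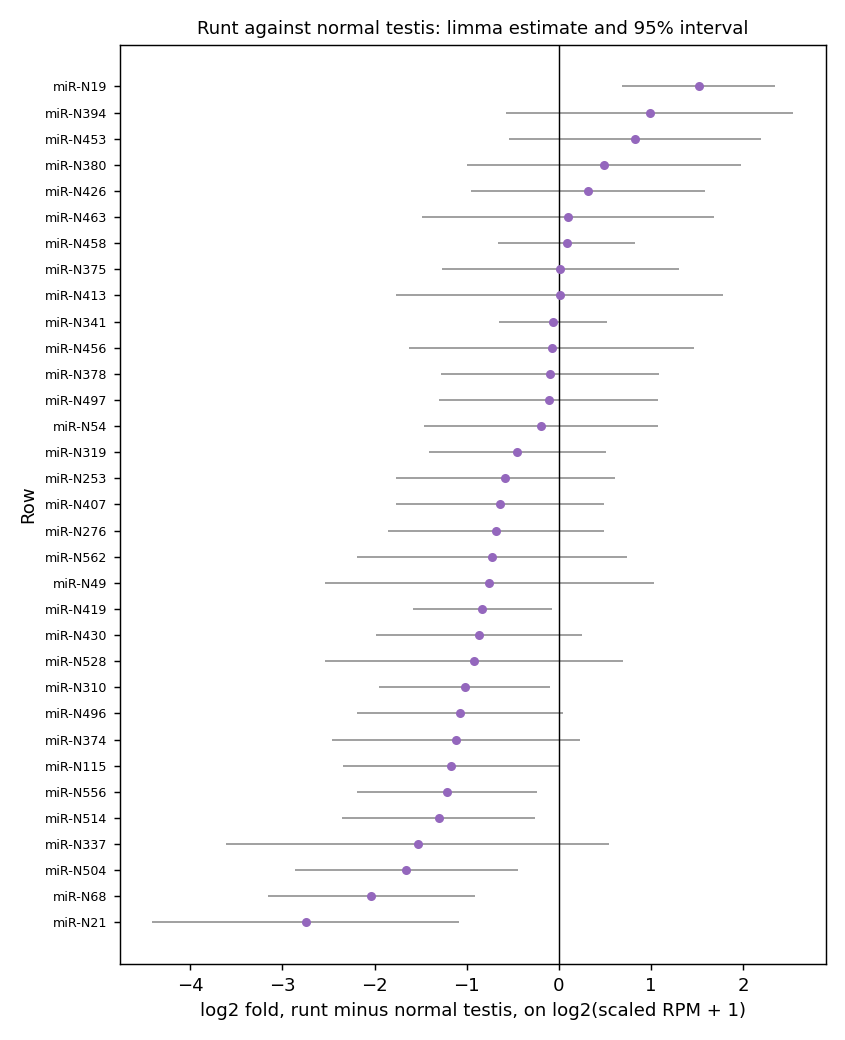
Log2 fold of runt minus normal testis (x, on log2 of scaled RPM + 1) for each of the 33 rows, with limma's 95% interval. Estimates run from -2.75 for miR-N21 to 1.52 for miR-N19, 24 of them are below 0, and none passed the adjusted threshold.

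A few settings brought single members past the threshold. miR-N68 passed without an intensity trend (limma adjusted p = 0.0455) and with only the rows at 10 RPM in all 4 libraries (0.0489). Over the alternatives within testis its limma adjusted p ran from 0.0455 to 0.343. A fit over all 15 columns called it too, with miR-N21, miR-N504 and miR-N556, but that fit takes its spread in part from columns in which these rows are at or near 0 by the choice of the members, and is not used as support. Without the second runt library miR-N19, miR-N21, miR-N310 and miR-N337 passed, and without the first runt library miR-N19 did. In these fits the lone runt library is assumed to vary like the normal ones.

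Levels of some markers of other cell types differed between the size classes, although among these only miR-375 passed the test. Sums and levels here are deposited RPM, while log2 folds are on the scaled RPM. The endocrine markers miR-375 and miR-7 summed to 15166 and 17995 RPM in the runt libraries, against 7022 and 4377 RPM in the normal ones. The difference lay in miR-375, with 10567 and 12144 RPM in the runt libraries, against 234 and 128 RPM in the normal ones (log2 fold 5.43, SE 0.24, limma adjusted p = 2.49e-04). The 6 striated muscle markers summed to 2510 and 493 RPM in the runt libraries, against 154 and 67.9 RPM in the normal ones. Most of the runt sums was miR-133-5p, with 2021 and 450 RPM. In the second runt library miR-1-1-5p (20.1 RPM) was near the normal libraries (17.75 and 17.58 RPM). There miR-206 and miR-499-3p were below the first normal library, while miR-1b-5p and miR-133-3p were above both normal ones. The 5 markers of epithelium and skin summed to 3580 and 1735 RPM in the runt libraries, against 686 and 402 RPM in the normal ones. Of them miR-200a-5p, miR-200b-5p and miR-429-3p were higher in both runt libraries, while miR-205a and miR-203-5p overlapped between the size classes. The 8 neuron markers summed to 3386 and 8769 RPM in the runt libraries, against 1998 and 1061 RPM in the normal ones. The neuron sum was carried by miR-129-5p and miR-128-1-5p. As deposited, miR-9-5p (103 and 117 RPM in runts, 160 and 67.9 RPM in normal hatchlings) overlapped between the size classes. So did miR-138-5p, with 83.4 and 198 RPM against 197 and 64.7 RPM. Their log2 folds of -0.52 and -0.41 hold for the scaled RPM only. The liver marker miR-122-5p had 286 and 3152 RPM in the runt libraries, against 43.3 and 66.8 RPM in the normal ones. Of these muscle, epithelium, neuron and liver markers, 2 of 6, 4 of 5, 5 of 8 and 1 of 1 were high enough to be tested, and none passed the adjusted threshold. The neuron markers miR-124-5p and miR-137-5p were at 0 in both normal libraries, and the muscle marker miR-499-3p was at 0 in the second runt library. In the other direction, the endothelial miR-126-5p had 1514 and 1523 RPM in the runt libraries, against 2343 and 2065 RPM in the normal ones, with a log2 fold of -1.13. Of the white blood cell markers, miR-155-5p had a log2 fold of -1.72 and miR-223 of -1.49. Most of the summed level of that list was miR-150, whose log2 fold was -0.18. It had 3785 and 4106 RPM in the runt libraries, against 3989 and 2189 RPM in the normal ones. Neither miR-126-5p nor any white blood cell marker passed. The 3 gut epithelium markers summed to 964 and 549 RPM in the runt libraries, against 351 and 643 RPM in the normal ones. Of them miR-215-5p had 251 RPM in the second normal library and 22.3 RPM in the first. The 3 markers of smooth muscle and mesenchyme summed to 17246 and 24412 RPM in the runt libraries, against 19864 and 9735 RPM in the normal ones. Both sums overlapped between the size classes, and none of these markers passed. The part of these other cell types in the members' values was not tested. In bulk tissue, fewer cells of a type and less RNA per cell cannot be told apart.

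The row with a family name whose pattern over the 15 columns was most like the members' sum was miR-202-5p, the gonad miRNA, with a Pearson r of 0.97 on log2(RPM + 1). It was followed by miR-34b-5p (r = 0.76), miR-7 (0.74), miR-190a-5p (0.70) and miR-10c-5p, a miRNA of the HOX clusters (0.68). These correlations are over 15 columns, and the members' sum is high in the 4 testis columns by the choice of the members. They were not taken within testis. There, as deposited, the sum was lowest in the second normal library and miR-202-5p in the second runt library. Of these 5 rows, the ratio of testis mean to highest other column was 683 for miR-202-5p, 2.88 for miR-10c-5p and under 1 for the others, which were higher than the testis mean in the runt brain or runt heart. Within testis miR-202-5p was lower in runts than in normal hatchlings on the scaled RPM (log2 fold -2.28, SE 0.37, limma adjusted p = 0.0443). Without scaling 0 rows passed as lower in runts, so this call depends on the scaling. miR-34b-5p, of germ cells and ciliated cells, had 984 and 449 RPM in the runt libraries, against 261 and 112 RPM in the normal ones, and did not pass (limma adjusted p = 0.126). The other markers of that list, miR-449a-5p (log2 fold -1.28) and miR-449b-5p (-0.76), had the other sign and did not pass either.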

How the data were processed

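The authors deposited 1 table of RPM values for 654 rows. Per the file headers, it comes from the quantifier of miRDeep2 (version 2_0_0_8). That the values are RPM was read from the values themselves: the header calls them counts, but they hold decimals. Tools named in the submitters' processing notes are Bowtie 1.2.0, bedtools 2.26.0 and bcl2fastq 2. The genome build and the total by which reads were divided are not given in the sources used here. The 60 samples carry 15 library names with 4 samples each, and the table has 1 column per name. Left out was 1 column whose name belongs to no sample, and the column headed cloacal gland was taken for cloaca. A name that occurred in 2 rows was used once. Some rows of different names had the same levels, such as let-7a-5p and miR-let-7a-5p, and each was counted. miR-204 and miR-211, both called lower in runts, had the same log2 fold of -2.18. Counts and shares of rows are therefore not counts of independent miRNAs.

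Members and marker lists were chosen with earlier results of these data known. The named rows are the 15 members of highest testis mean, those of largest ratio, those next to each threshold, the 5 rows with a family name of most like pattern, and any member past the test. Further members are named with their values, or in lists.

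The worth of 1 read was taken as the largest step of which at least 85% of low values are whole multiples within 0.1 reads. It held for 88.4% to 95.3% of them. Since others were fractions, no count model was used.

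Libraries were scaled by unweighted TMM factors (30% of log ratios trimmed, and 5% by mean level) over the rows tested. limma 3.58.1 in R 4.3.3 was run with an intensity trend and a pseudocount of 1, and the fold scale understates changes of low rows. The fit was checked on simulated data, in which most rows were changed, for the recovery of large known changes. That check set no limit on false calls. Python 3.11.15 was used for the rest.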

Additional observations from a re-analysis of the deposited data

Results flagged for a closer look

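In 3 of the 34 sets of 4 testis libraries examined (the 33 rows and their sum), 1 library lay far from the other 3 by Dixon's criterion. Chance alone flags about 1 in 20 such sets. In all 3 rows it was the first normal library that was high. miR-N21 had 915.6 RPM there, with 51.5 and 138 RPM in the runt libraries and 157 RPM in the second normal library. miR-N115 had 53.5 RPM there, against 24.2 and 19.2 RPM in the runt libraries and 20.4 RPM in the second normal one. miR-N496 had 36.7 RPM there, against 16.6 and 15.7 RPM in the runt libraries and 14.8 RPM in the second normal one. These values are as deposited, where most rows were lowest in the second normal library. When scaled, none of the 3 met the criterion. The gap of the first normal library to the nearest other library was then 0.709 of the range for miR-N21, 0.383 for miR-N115 and 0.352 for miR-N496.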

How the results depend on the processing

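Rows past the threshold for runts against normal hatchlings in testis numbered 12 (7 higher, 5 lower). They became 24 (24 and 0) without scaling, 4 (2 and 2) with median-of-ratios scaling and 3 (1 and 2) without a filter. A pseudocount of 5 gave 12 higher and the fit over all 15 columns 1 higher. Leaving out 1 testis library gave 2 to 47 rows (2 to 28 higher, 0 to 19 lower). It was 7 without the first and 2 without the second normal library, and 19 without the first and 47 without the second runt library. Members called were 0, but 1 with at least 10 RPM in all testis columns, 1 without a trend, 4 in the fit over all columns (whose spread includes values near 0 by the choice of the members), and 0 to 4 with a library left out. No setting called more.

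The log2 fold of miR-N341 (-0.06) turned to 0.54 without scaling, 0.0043 with at least 10 RPM in all testis columns and 0.078 without the first runt library, and ran from -0.13 to 0.078 with a library left out. That of miR-N458 (0.08) turned to -0.14 without a filter, -0.22 in the fit over all columns, -0.034 without the first runt library and -0.074 without the second normal one, and ran from -0.074 to 0.36 with a library left out. None of these passed the threshold. The number of members was 33, and 19 with a minimum of 20 RPM. It was 30 on scaled RPM, 29 of them among the 33, and 33 to 40 with a testis library left out. The summed level was 6158 RPM in runt testis and 5214 RPM in normal testis. When scaled it was 4991 RPM in runt testis and 5916 RPM in normal testis, so the order of the groups turned. Without miR-N341 it was 3308 RPM in runt testis and 3139 RPM in normal testis. Relative to the reads other than miR-N444, an alternative chosen after seeing the data, it was 8514 RPM in runt testis and 9484 RPM in normal testis, again in the turned order. The cause of these changes was not tested, except that filters and omitted libraries change which rows are tested.

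No paired analysis was possible because the columns carry no replicate numbers. The libraries of 2 per size class and, outside testis, the depth of jaw skin and liver limit what can be seen.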
